A study of Xenopus laevis with 3 samples.

Results

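The genes of the spliceosome and of the main RNA splicing factor families were followed in tadpole heads of the frog Xenopus laevis on 3 arrays. The members were all probe sets with 1 platform gene symbol beginning with snrp, snrnp, srsf, hnrnp, sf3a, sf3b, prpf or lsm, followed by a digit or a subunit letter. This gave 149 of 32635 probe sets, which stand for 90 gene copies of 71 genes, out of 9273 genes named on the array by a single symbol. X. laevis carries many genes on both of its subgenomes, and the copies are marked .L and .S; 44 of the member copies were .L, 46 were .S, and 19 genes had both. The rule reads symbols and no measured value.

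The study asked how the protein kinase MLTK acts in cartilage formation, and also depleted the transcription factor Sox6. All 3 groups were embryos injected with a morpholino, an antisense oligonucleotide, at 10 ng per cell into the animal pole of each early blastomere. At 72 hours after fertilisation, near stage 41, heads were taken, and 1 array was hybridised for each of CoMO, which served as the control here, xMLTK-MO and xSox6-MO. What CoMO stands for is not spelled out, and the strain, the clutch and how many heads were pooled are not given in the sources used here. With 1 array per group there was no spread between embryos to set a difference against, so no test was possible and each value describes these arrays only. In whole heads, fewer cells of a type and less RNA per cell cannot be told apart. The targets themselves could not be checked at the RNA level, since 0 probe sets carried the symbols map3k20 (MLTK) or sox6.

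The spliceosome removes introns from pre-mRNA and is built from small nuclear ribonucleoprotein particles, the snRNPs, each of which holds a small nuclear RNA and its proteins. The U1 particle marks the start of an intron, the U2 particle binds the branch point, and the joined U4/U6 and U5 particles bring in the proteins that rearrange the RNAs before the cuts. A ring of Sm proteins sits on most of the small nuclear RNAs, a related ring of LSm proteins sits on the U6 RNA, and SR proteins and hnRNP proteins bind the pre-mRNA and shift the choice of splice sites. All cells use this machinery, so a whole head is a mixture of every cell type's share of it.

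The values were intensities per probe set, made by the authors with RMA, and they were compared after taking log2. Of the 149 members, 139 had a mean log2 intensity of at least 6.51, the median of all probe sets, and 88 of the 90 gene copies had such a probe set. On every array 145 members were above the highest of 23 negative control probe sets, and 4 were not above it on any array. Taken on each array separately, the lowest log2 intensity of a passing member was 6.41, 6.50 and 6.51 in CoMO, xMLTK-MO and xSox6-MO. The highest was 13.17, 13.15 and 13.20, and the members at these ends were not the same on every array. Medians of the passing members were 9.96, 9.99 and 10.08, against 8.45, 8.44 and 8.46 for all 9624 passing probe sets with 1 symbol. Markers of head tissues were measured: of the copies on the neuron, lens, photoreceptor and cartilage lists, those not above the negative controls on any array numbered 0 of 13, 2 of 10, 0 of 10 and 0 of 10.

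Splicing factor genes were nearly level between xMLTK-MO and CoMO and mostly slightly higher in xSox6-MO. Against CoMO, the median log2 difference over the 139 passing members was -0.01 in xMLTK-MO and 0.15 in xSox6-MO, beside -0.02 and 0.01 over all passing probe sets. In xSox6-MO 103 members were higher and 36 lower than in CoMO, 74.1% higher where 50.9% of all passing probe sets were higher and 49.1% lower. In xMLTK-MO 72 members were lower, a share of 51.8% beside a background of 52.6%. The 2 comparisons share the CoMO array. Set directly against each other, xMLTK-MO was lower than xSox6-MO for 105 of 139 members, 75.5% beside 52.9%, with a median of -0.14 beside -0.02. The xSox6-MO array held the highest value of the 3 for 84 members, 60.4% beside 35.0%, and the lowest for 15 members, 10.8% beside 31.2%.

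The members are brighter than most probe sets, so the same shares were taken among probe sets with a mean log2 intensity of at least 9, a limit chosen after seeing the data. There 77 of 103 members were higher in xSox6-MO than in CoMO, 74.8% beside 52.9% of 3500 probe sets, and 77 of 103 were lower in xMLTK-MO than in xSox6-MO, 74.8% beside 56.1%. The direction of xMLTK-MO against CoMO depends on the centring of the arrays. Centring on the median of the spiked hybridisation controls added 0.10 to each difference of xMLTK-MO from CoMO and 0.18 to each of xSox6-MO, and members and background moved together. Relative to the background median, members lay 0.14 higher in xSox6-MO and 0.01 higher in xMLTK-MO. These gaps ranged from 0.11 to 0.17 and from -0.002 to 0.05 over all processing choices tried. Centring could not change them, and raising dim values to the highest negative control left them nearly as they were.

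**Figure D1:**
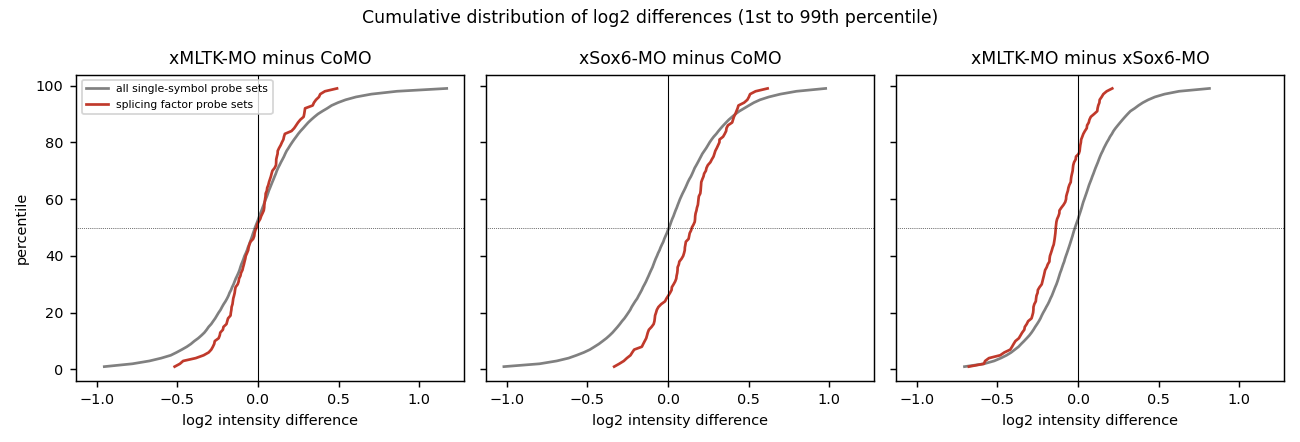
Percentile (vertical axis, 1st to 99th) against log2 intensity difference (horizontal axis) for the 139 passing splicing factor probe sets (red) and all 9624 passing probe sets with 1 symbol (grey), in the 3 pairs of arrays. The red curve meets the 50th percentile at -0.01 in xMLTK-MO minus CoMO, at 0.15 in xSox6-MO minus CoMO and at -0.14 in xMLTK-MO minus xSox6-MO, and it is steeper than the grey one.

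With the arrays as deposited, large differences from CoMO were rarer among the members than among all passing probe sets. Between xMLTK-MO and CoMO, 1 member was at least 1.5-fold lower and 1 at least 1.5-fold higher. Each was 0.719% of members, where 4.19% and 4.28% of all passing probe sets were. Between xSox6-MO and CoMO, 0 members were at least 1.5-fold lower and 2 higher (1.44%), beside 4.58% and 4.68%. Between the morphants, 3 were at least 1.5-fold lower in xMLTK-MO, 2.16% and near the background of 1.98%. None was higher by that much, beside 2.47%. At 2-fold, 0 passing members differed from CoMO in either direction, where 0.831% of probe sets were lower and 1.33% higher in xMLTK-MO, and 1.03% lower and 0.956% higher in xSox6-MO. The 1 member past 2-fold between the morphants was snrnp40.S, lower in xMLTK-MO, beside a background of 0.27% lower and 0.509% higher. The standard deviation over members of the log2 difference was 0.226 in xMLTK-MO minus CoMO, 0.225 in xSox6-MO minus CoMO and 0.207 between the morphants, beside 0.381, 0.384 and 0.29 over all passing probe sets.

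The Sm proteins form the ring that is loaded onto newly made small nuclear RNAs. Averaged over passing probe sets, all 6 Sm copies were higher than CoMO on both morphant arrays, with medians of 0.14 in xMLTK-MO and 0.12 in xSox6-MO. By probe set 7 of 8 were higher on each. This was 87.5%, beside 47.4% and 50.9% of all passing probe sets in xMLTK-MO and xSox6-MO. Lower in xMLTK-MO than in xSox6-MO were 3 of the 8, 37.5% beside 52.9%, with a median of 0.01. The gene of SmD3, snrpd3.L, had log2 intensities of 10.22 in CoMO, 10.66 in xMLTK-MO and 10.65 in xSox6-MO. Both morphants were thus about equally above the control, by 0.44 and 0.43. SmF, snrpf.S, had 10.94, 11.29 and 11.07 on the same arrays, so its value was highest in xMLTK-MO. It rests on 1 passing probe set, whose name ends in _x_at (see U2-A' below). The genes of SmB, snrpb.L and snrpb.S, differed less, by 0.02 and 0.12 in xMLTK-MO and by 0.11 and 0.11 in xSox6-MO. For SmD1, the 2 probe sets of snrpd1.L went opposite ways between the morphants, at 0.37 and -0.19. The remaining copy, snrpg.S of SmG, was at 12.10, 12.14 and 12.29.

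U1 proteins recognise the 5' splice site together with the U1 RNA. All 6 passing probe sets of the 4 U1 copies were higher than CoMO on both morphant arrays and lower in xMLTK-MO than in xSox6-MO. Of all passing probe sets, 47.4% in xMLTK-MO and 50.9% in xSox6-MO were higher than CoMO. Between the morphants 52.9% of them were lower in xMLTK-MO. The U1-70K gene snrnp70.L had a probe set at 8.38 in CoMO, 8.49 in xMLTK-MO and 9.03 in xSox6-MO, a 1.57-fold difference of xSox6-MO from CoMO. Its other probe set was at 11.77, 11.85 and 11.88, so the probe sets of this copy do not give the same size, with differences of 0.65 and 0.10. Of the other U1 genes, snrpa.S (U1-A) differed from CoMO by 0.15 and 0.16, snrpc.S (U1-C) by 0.10 and 0.22, and prpf39.1.L, a copy of the gene for a protein known as a U1 component in yeast, by 0.10 and 0.41, in xMLTK-MO and xSox6-MO in turn.

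Genes of the U2 particle lay on different sides of the control. Its SF3A and SF3B subcomplexes hold the branch point. With the U2-specific proteins they gave 12 passing probe sets lower and 12 higher than CoMO in xMLTK-MO, with a median of 0.005. The lower share, 50%, was near the 52.6% of all passing probe sets. In xSox6-MO 19 of the 24 probe sets were higher, 79.2% beside 50.9%, with a median of 0.15. Lower in xMLTK-MO than in xSox6-MO were 17, 70.8% beside 52.9%, with a median of -0.10. The SF3B subunit gene sf3b4 was higher on both morphant arrays in each of its 4 passing probe sets: sf3b4.L had 9.47 in CoMO, 9.85 in xMLTK-MO and 9.82 in xSox6-MO. Over the 3 probe sets of sf3b4.S the means were 7.47, 7.75 and 7.71. They include a probe set and its _x_at version (see U2-A' below), near the level limit at 6.63 and 6.41 in CoMO.

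The SF3A genes differed between subunits. Values for sf3a1.L were 9.87 in CoMO, 10.15 in xMLTK-MO and 10.28 in xSox6-MO. Both copies of sf3a2 were higher than CoMO, sf3a2.L at 7.58, 7.98 and 7.93 and sf3a2.S at 8.14, 8.36 and 8.50. The third subunit, sf3a3.S, was instead lowest in xMLTK-MO in both of its probe sets, at 8.70, 8.36 and 8.84 in one of them.

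The branch point protein gene sf3b6.S resembled sf3a3.S, with 9.81 in CoMO, 9.49 in xMLTK-MO and 9.96 in xSox6-MO. The large scaffold gene sf3b1.S was lower than CoMO in 3 of 4 probe sets in xMLTK-MO, at differences of -0.19, -0.50 and -0.27, and at 0.01 in the fourth. In xSox6-MO the same 4 probe sets were at -0.12, -0.30, -0.09 and 0.06. Its partner sf3b3.L differed by -0.14 and -0.08, sf3b2.L by 0.12 and 0.10 and sf3b5.S by -0.003 and -0.13. Of the U2-specific proteins, snrpb2.L (U2-B'') differed by 0.21 and 0.27 and snrpb2.S by 0.06 and 0.13.

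U2-A', encoded by snrpa1.S, was the copy with most probe sets, 6, and they disagreed. Of the 5 that passed, 4 were lower in xMLTK-MO than in CoMO, at -0.10, -0.11, -0.27 and -0.09, and 1 was 1.52-fold higher, at 6.50 in CoMO, 7.10 in xMLTK-MO and 7.04 in xSox6-MO. That probe set was the only passing member at least 1.5-fold higher in xMLTK-MO than in CoMO. Its name ends in _x_at, which by the array maker's convention marks probes that may bind other transcripts.

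**Figure D2:**
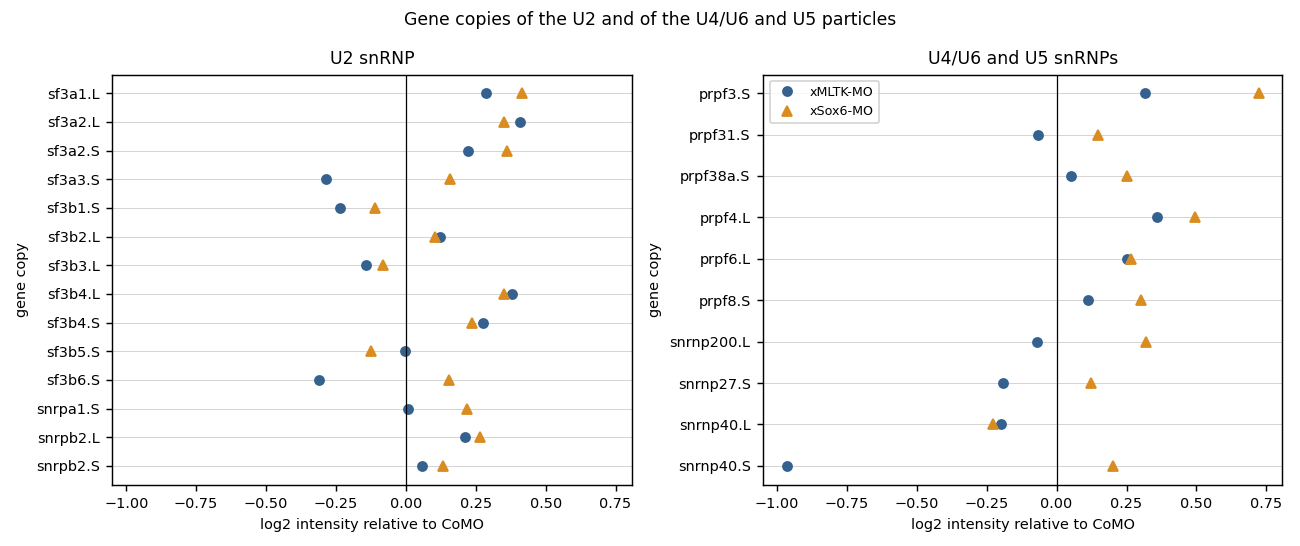
Log2 intensity relative to CoMO (horizontal axis) for the gene copies (vertical axis) of the U2 particle (left) and of the U4/U6 and U5 particles (right), each averaged over its passing probe sets, on the xMLTK-MO array (circles) and the xSox6-MO array (triangles). On the right 9 of 10 copies have the xMLTK-MO value left of the xSox6-MO value, and snrnp40.S stands apart at -0.96 in xMLTK-MO.

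The U4/U6 and U5 protein genes had a median of 0.22 in xSox6-MO over 15 passing probe sets, of which 13 were higher than CoMO. This was 86.7% beside 50.9% of all passing probe sets. In xMLTK-MO the median was 0.02, with 8 higher and 7 lower, 46.7% lower beside 52.6%. Between the morphants 13 of 15 were lower in xMLTK-MO, 86.7% beside 52.9%, with a median of -0.21. The U4/U6 protein gene prpf3.S had 8.08 in CoMO, 8.37 in xMLTK-MO and 8.96 in xSox6-MO in a probe set whose name ends in _s_at. Its other probe set had 7.89, 8.24 and 8.46. Both put the xSox6-MO array highest and the CoMO array lowest, at 1.84-fold and 1.48-fold between these. The U4/U6 protein gene prpf4.L, whose product binds that of prpf3, had the same order, at 7.83, 8.19 and 8.33.

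The genes of the U5 core proteins prpf8 and snrnp200 differed less from CoMO than prpf3.S and prpf4.L did. The gene of the largest spliceosome protein, prpf8.S, was at 10.60 in CoMO, 10.71 in xMLTK-MO and 10.90 in xSox6-MO. The helicase gene snrnp200.L, whose product unwinds U4 from U6, was at 10.15, 10.08 and 10.47, so only xSox6-MO stood above the control by more than 0.1. The gene prpf6.L, for the protein that bridges U5 and U4/U6, had means of 8.31, 8.56 and 8.58 over its 2 passing probe sets, and snrnp27.S means of 11.74, 11.55 and 11.86. The passing probe set of prpf31.S was at 9.04, 8.97 and 9.19, and the 2 of prpf38a.S averaged 8.09, 8.15 and 8.34.

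The U5 gene snrnp40, which encodes a WD-repeat protein, had the largest difference of any passing member, in its .S copy. The single probe set of snrnp40.S had log2 intensities of 9.20 in CoMO, 8.23 in xMLTK-MO and 9.40 in xSox6-MO. The xMLTK-MO value was below CoMO by 1.95-fold and below xSox6-MO by 2.25-fold. The .L copy did not share this: its probe sets had 9.96, 9.81 and 9.64 in one case, and in the other they differed from CoMO by -0.24 in xMLTK-MO and -0.13 in xSox6-MO. With 1 probe set and 1 array the value for snrnp40.S has no repeat.

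The minor U11/U12 particle, which serves a rare class of introns, was represented by 3 copies. The gene snrnp48.L had 9.16 in CoMO, 9.08 in xMLTK-MO and 9.66 in xSox6-MO, while snrnp25.S was at 7.61, 7.56 and 7.67 and snrnp35.L at 6.60, 6.57 and 6.52. Only snrnp48.L thus differed by more than 0.12 in any pair of arrays. Among the genes of later steps, the ubiquitin ligase gene prpf19.L differed from CoMO by 0.05 in xMLTK-MO and 0.11 in xSox6-MO, the second-step factor gene prpf18.L by -0.16 and -0.08, and the kinase gene prpf4b.S by -0.14 and -0.01.

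The genes of LSm2 to LSm8, the ring on the U6 RNA, lay on one side between the morphants, as those of U1 did. All 13 passing probe sets, from 7 copies with 1 copy per gene, were lower in xMLTK-MO than in xSox6-MO, beside 52.9% of all passing probe sets. Their median was -0.22 and their range -0.41 to -0.03. Against CoMO 11 of 13 were lower in xMLTK-MO, 84.6% beside 52.6%, with a median of -0.15. In xSox6-MO 9 of 13 were higher than CoMO, 69.2% beside 50.9%, with a median of 0.09. The copy lsm6.S had 9.90 in CoMO, 9.54 in xMLTK-MO and 9.82 in xSox6-MO, so xMLTK-MO was the low array. The 3 probe sets of lsm8.S were lower in xMLTK-MO than in CoMO by differences of -0.16, -0.08 and -0.53. The copy lsm2.L averaged 9.87, 9.87 and 10.15, high in xSox6-MO only.

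Of the other LSm genes, lsm1.S, whose product acts in cytoplasmic mRNA decay in place of LSm8, had 8.97 in CoMO, 8.49 in xMLTK-MO and 8.74 in xSox6-MO. Both probe sets of lsm12.L were higher in both morphants. Their values were 8.92, 9.44 and 9.34 in one and 9.15, 9.54 and 9.55 in the other. Of the 6 passing probe sets of this family, 3 were lower in xMLTK-MO than in xSox6-MO. This was 50% beside 52.9% of all passing probe sets, near the background. LSm14 proteins are RNA granule proteins and not spliceosome parts; lsm14a.L and lsm14a.S differed from CoMO by 0.09 and 0.16 in xMLTK-MO and by -0.07 and 0.14 in xSox6-MO, and lsm14b.L by -0.28 and -0.22.

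SR proteins bind exonic enhancers and favour the use of nearby splice sites. Over 22 passing probe sets the median was 0.01 in xMLTK-MO and 0.06 in xSox6-MO, and 12 and 16 of them were higher than CoMO. These were 54.5% and 72.7%, beside 47.4% and 50.9% of all passing probe sets. Lower in xMLTK-MO than in xSox6-MO were 14, 63.6% beside 52.9%, with a median of -0.05. The largest negative difference of the family from CoMO was that of srsf7.L, in both morphants, at 9.60 in CoMO, 9.19 in xMLTK-MO and 9.07 in xSox6-MO. The 2 probe sets of its homeolog srsf7.S averaged 11.52, 11.63 and 11.56. A probe set of srsf11.L had 9.73, 9.88 and 10.24, and its other probe set 9.61, 9.60 and 9.80, both highest in xSox6-MO. The copies srsf2.L at 13.17, 13.15 and 13.19 and srsf9.S at 11.31, 11.35 and 11.32 stayed within 0.05 on the log2 scale across the arrays. The gene srsf6 differed in its .S copy by 0.29 and 0.27 and in its .L copy by 0.05 and -0.09, and srsf12.L differed by -0.29 and -0.25.

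The hnRNP proteins coat nascent transcripts and often repress exons. Of 38 passing probe sets, 31 were lower in xMLTK-MO than in xSox6-MO, with a median of -0.17. This was 81.6% beside 52.9% of all passing probe sets. Against CoMO, 24 were lower in xMLTK-MO, 63.2% beside 52.6%, with a median of -0.07. In xSox6-MO 26 were higher than CoMO, 68.4% beside 50.9%, with a median of 0.18. One probe set of hnrnpdl.L had 11.63 in CoMO, 11.39 in xMLTK-MO and 12.12 in xSox6-MO, 1.65-fold lower in xMLTK-MO than in xSox6-MO. The other probe set of that copy was flat, at 8.22, 8.19 and 8.18. All 3 probe sets of hnrnpa3.L were highest in xSox6-MO, one at 9.17, 9.11 and 9.68. So were the 3 of hnrnpr.S, with means of 10.76, 10.71 and 11.01. Those of hnrnpr.S include some ending in _x_at (see U2-A' above).

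The scaffold protein gene hnrnpu was higher than CoMO in all 4 of its probe sets on both morphant arrays. Its copy hnrnpu.S had 10.53 in CoMO, 10.60 in xMLTK-MO and 10.95 in xSox6-MO. In the opposite direction, both probe sets of hnrnpa2b1.S were lower in the morphants, at 10.20, 9.73 and 9.86 in one and 9.19, 9.08 and 8.97 in the other. The homeologs of hnrnpa1, an exon-silencing protein, went apart. Values for hnrnpa1.S were 11.76, 12.14 and 11.98, and the 3 probe sets of hnrnpa1.L averaged 11.66, 11.44 and 11.56. The probe sets of hnrnpa1.L include some ending in _x_at, which may bind other transcripts (see U2-A' above). The poly-C binding protein gene hnrnpk.S, with 4 passing probe sets, averaged 10.11, 10.04 and 10.15.

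**Figure D3:**
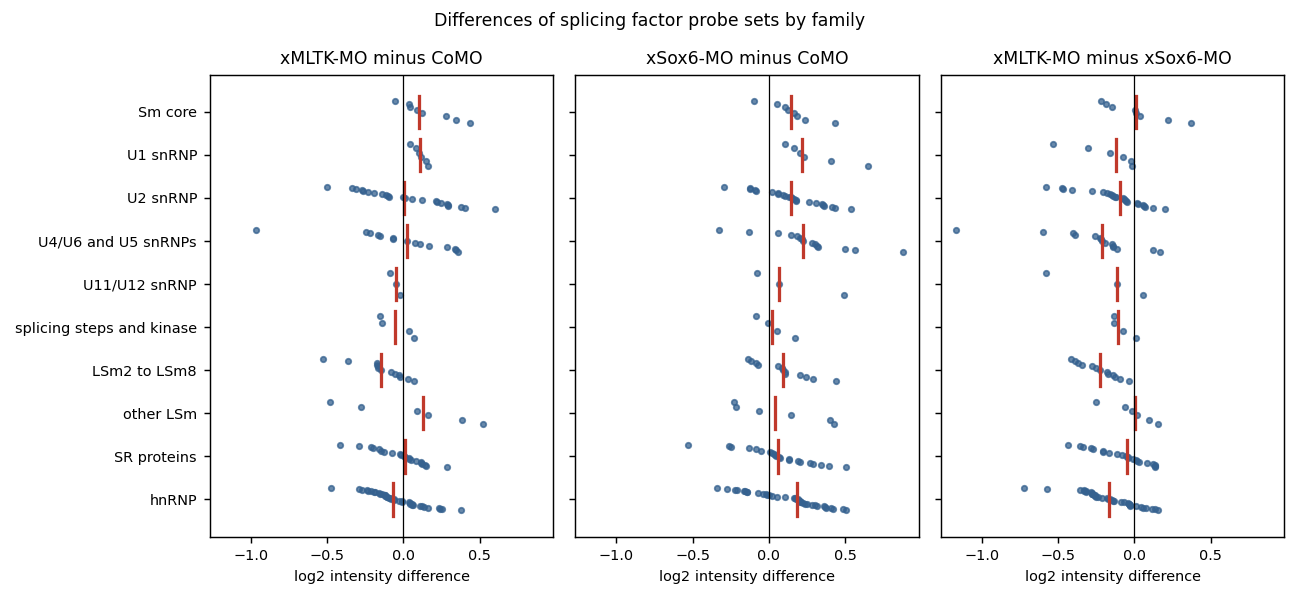
Log2 intensity difference (horizontal axis) of each passing member probe set (dots, spread vertically for sight) by family (vertical axis), with family medians as red bars, in the 3 pairs of arrays. All 13 dots of LSm2 to LSm8 and all 6 of U1 lie below 0 in xMLTK-MO minus xSox6-MO, while the Sm core median there is 0.01. Of all passing probe sets, not drawn here, 52.9% were below 0 in that pair.

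By gene copy the picture was close to that by probe set. Of the 88 copies with a passing probe set, 43 were lower and 45 higher in xMLTK-MO than in CoMO, 22 were lower and 66 higher in xSox6-MO than in CoMO, and between the morphants 64 were lower and 24 higher in xMLTK-MO. When a copy was instead averaged over all its probe sets and kept at the same level limit, 86 member copies remained, of which 42 were lower in xMLTK-MO than in CoMO, 62 higher in xSox6-MO than in CoMO and 62 lower in xMLTK-MO than in xSox6-MO. Of all 7258 copies kept in that way, 53.1% were lower, 49.1% higher and 51.9% lower in these comparisons in turn. Within families the 2 counts could differ. Averaged over passing probe sets, 5 U2 copies were lower and 9 higher in xMLTK-MO than in CoMO. Their median was 0.09, where the probe sets gave 0.005. SR protein copies had medians of 0.04 in xMLTK-MO and 0.03 in xSox6-MO, where the probe sets gave 0.01 and 0.06. Of these copies 8 were lower and 6 higher in xMLTK-MO than in xSox6-MO. Probe sets of 1 copy share a transcript and may share probes, and they are not replicates of a condition.

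Probe sets of the same copy disagreed with each other to a measurable extent. Among 35 copies with several passing probe sets, 86 in all, the standard deviation within a copy was 0.15 for xMLTK-MO minus CoMO, 0.17 for xSox6-MO minus CoMO and 0.18 between the morphants, beside 0.20, 0.23 and 0.20 over 1241 such copies of all genes. In the comparison of the morphants, all passing probe sets were lower in xMLTK-MO for 21 of the 35 copies, all were higher for 1 and 13 were mixed. In xSox6-MO minus CoMO all were higher for 21, all lower for 2 and 12 were mixed. In xMLTK-MO minus CoMO all were lower for 13, all higher for 12 and 10 were mixed. These counts of agreement were not taken over copies of all genes, so they describe the members only.

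**Figure D4:**
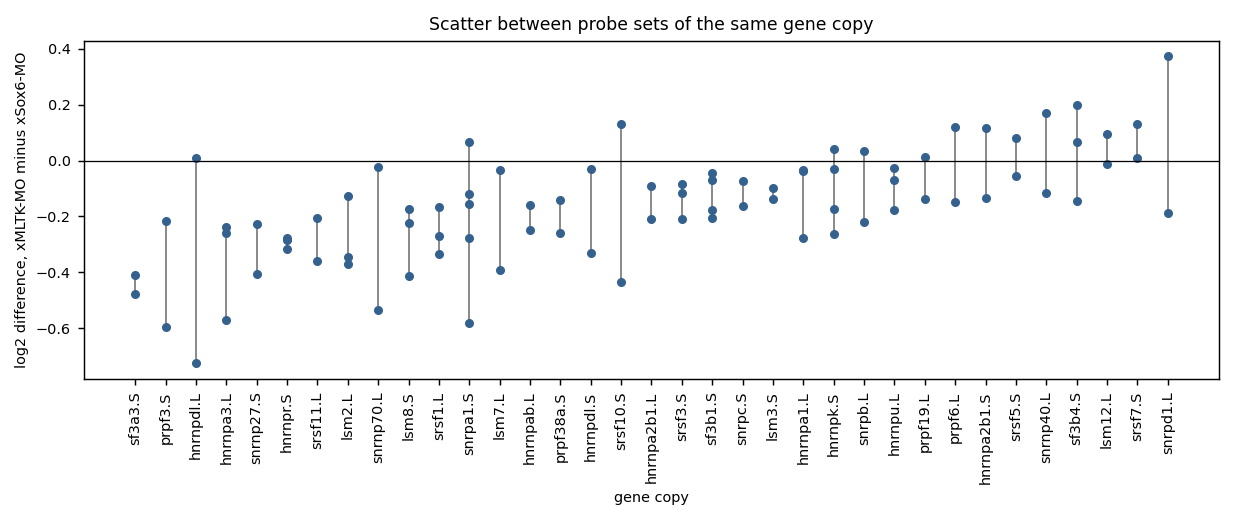
Log2 difference of xMLTK-MO minus xSox6-MO (vertical axis) for the passing probe sets (dots, joined by a grey line) of the 35 gene copies with more than 1 of them (horizontal axis), ordered by mean. For 21 copies every dot lies below 0, a count not taken over copies of all genes. The dots of hnrnpdl.L, snrpa1.S, srsf10.S and snrpd1.L lie farthest from each other.

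Homeologs gave a further comparison, over 17 genes with both copies passing. The copies are separate genes read on the same arrays and are not replicates of a condition. The median gap between .L and .S was 0.16 for xMLTK-MO minus CoMO, 0.21 for xSox6-MO minus CoMO and 0.18 between the morphants, beside 0.16, 0.18 and 0.15 over 1281 pairs of all genes. The widest gap among members was that of snrnp40, 1.19 between the morphants. Both copies were higher than CoMO for 9 of the 17 genes in xMLTK-MO and 9 in xSox6-MO, and both were lower for 5 and 1. Over all pairs both copies were higher for 32.1% and 35.8% and both lower for 39.2% and 35.1%, where the members had 52.9% and 52.9% higher and 29.4% and 5.88% lower. Between the morphants both were lower in xMLTK-MO for 7 and both higher for 4, shares of 41.2% and 23.5% beside 39.4% and 29.6% of all pairs, which is near the background.

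The 10 members below the level limit belonged to 9 copies, of which lsm14b.S and srsf5a.L had no other probe set, and their log2 intensities ran from 2.45 to 6.57. The SR protein gene srsf5a.L had 4.99 in CoMO, 6.57 in xMLTK-MO and 6.40 in xSox6-MO, above the highest negative control on each array, which was at 4.54, 4.71 and 4.39. It was higher than CoMO by 1.59 and 1.41 on the log2 scale, the largest positive differences of any member, but at a low level, and its homeolog srsf5a.S at 10.16, 10.27 and 10.56 differed by 0.11 and 0.40. A dim probe set of lsm7.L had 5.92, 5.30 and 5.63, while the 2 passing ones differed by -0.17 and -0.15 in xMLTK-MO. The 4 members not above the controls on any array were 2 probe sets of prpf31.S and 1 each of prpf38a.S and snrpf.S, and no fold is given for them. The RNA granule gene copy lsm14b.S was at 6.17, 6.19 and 5.92, and the rest of the 10 were dim probe sets of hnrnpk.S, prpf6.L and snrpa1.S.

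Other genes of the splicing pathway were taken from lists of symbols, counted as gene copies at the same level limit. Of 66 copies of further spliceosome genes, 57 were higher in xSox6-MO than in CoMO, with a median of 0.19. This was 86.4% beside 49.1% of all 7258 copies. Between the morphants 54 were lower in xMLTK-MO, 81.8% beside 51.9%, with a median of -0.15. In xMLTK-MO against CoMO 26 were lower and 40 higher, with a median of 0.03. The lower share was 39.4% beside 53.1%. The zinc finger protein gene rbm22.S had 9.49 in CoMO, 10.01 in xMLTK-MO and 10.19 in xSox6-MO, and the speckle protein gene pnn.S 8.13, 8.61 and 8.77, both higher in both morphants. The helicase gene dhx15.L, whose product takes spent spliceosomes apart, had 10.05, 10.26 and 10.65. The RNA helicase gene ddx39b.L, at 10.14, 9.38 and 10.06, was low in xMLTK-MO only, and rbmx2.L, at 9.26, 9.96 and 9.75, was high in both.

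Factors that assemble the snRNPs had medians of 0.10 in xMLTK-MO and 0.20 in xSox6-MO over 16 copies, with 10 and 12 higher than CoMO. These were 62.5% and 75%, beside 46.9% and 49.1% of all gene copies. Set against xSox6-MO, 12 of the 16 were lower in xMLTK-MO, 75% beside 51.9%, with a median of -0.10. The import adaptor gene snupn.L had 7.65 in CoMO, 8.25 in xMLTK-MO and 8.20 in xSox6-MO, and the SMN complex partner gene strap.L 8.13, 8.61 and 8.53. The methylosome gene clns1a.L, at 10.09, 9.74 and 10.00, was lowest in xMLTK-MO. Splicing regulators and SR protein kinases were divided in xSox6-MO: of 39 copies 18 were higher than CoMO and 21 lower, with a median of -0.04. The higher share, 46.2%, was near the 49.1% of all copies. In xMLTK-MO 30 of these 39 copies were lower than CoMO, 76.9% beside 53.1%, with a median of -0.09. Set against xSox6-MO, 30 of the 39 were lower in xMLTK-MO, 76.9% beside 51.9%, with a median of -0.12. On this list the neuronal regulator gene nova2.L had 8.86, 8.38 and 8.90, and rbm5.S had 10.01, 9.85 and 9.29. The gene nono.L, higher than CoMO in both morphants, had 10.93, 11.25 and 11.48.

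Lists of other cells and processes also differed between the arrays, and their part in the splicing factor values was not tested. Of 33 cell cycle copies 33 were lower than CoMO in xMLTK-MO, with a median of -0.68, and 32 in xSox6-MO, with a median of -0.36. These were 100% and 97.0%, beside 53.1% and 50.9% of all gene copies. Between the morphants 31 were lower in xMLTK-MO, 93.9% beside 51.9%, with a median of -0.26. Summed over the cell cycle list, intensity was 33720 in CoMO, 23210 in xMLTK-MO and 27270 in xSox6-MO, with 3 of 39 copies not above the negative controls. The neural progenitor list, of 9 copies all above them, summed to 18110, 14280 and 17590, and without fabp7.L, a glial and progenitor gene, to 8872, 8661 and 9004; the medians over its 8 passing copies were -0.13 in xMLTK-MO and 0.03 in xSox6-MO. The neuron list summed to 15970, 16040 and 16460, while the medians over its 13 copies were 0.02 in xMLTK-MO and -0.05 in xSox6-MO. Of these copies 9 were higher and 4 lower in xMLTK-MO than in xSox6-MO, with a median of 0.10. Photoreceptor copies had medians of -0.45 and -1.10 in xMLTK-MO and xSox6-MO, lens copies -0.30 and -0.75, cartilage copies -0.57 and -0.93 and skeletal muscle copies -0.16 and -0.17. The 7 epidermis copies had medians of 0.03 and -0.01, but ranged from -1.51 to 0.29 in xMLTK-MO and from -1.12 to 0.33 in xSox6-MO. The 5 erythrocyte copies had medians of -0.21 and -0.26, with ranges of -1.35 to -0.15 and -0.96 to -0.05.

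**Figure D5:**
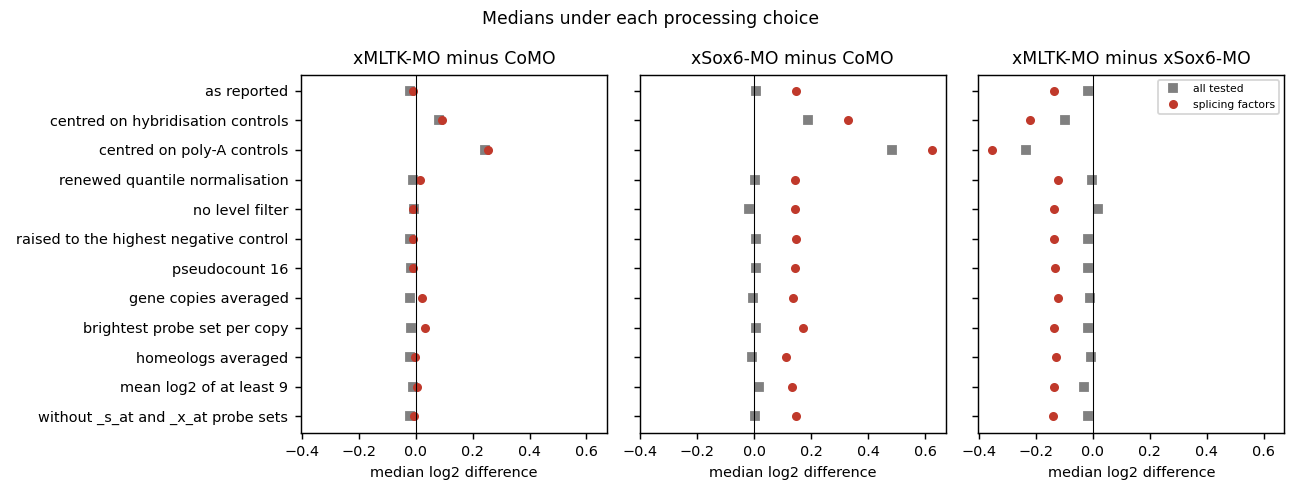
Median log2 difference (horizontal axis) of the splicing factor members (red circles) and of all features tested (grey squares) under each processing choice (vertical axis), in the 3 pairs of arrays. The red circle lies right of the grey square in xSox6-MO minus CoMO and left of it in xMLTK-MO minus xSox6-MO in all 12 rows. The centring rows shift both marks alike, so they cannot change the order.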

How the data were processed

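RNA from tadpole heads was measured on Affymetrix GeneChip Xenopus laevis Genome 2.0 arrays, 1 per group, grouped by the labelled treatment. The authors deposited an intensity per probe set, not logged. Per the submitters' processing notes the authors made them with RMA (background correction, quantile normalisation, probe summary), and per the series' design text with GeneChip operating Software 1.4 and GeneSpring GX 11.0.2. Quantile normalisation hides a change of all transcripts together.

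Log2 was taken and arrays were subtracted with Python 3.11.15 and pandas 2.3.3. Of the probe sets, 15505 had 1 gene symbol, 279 several and 16851 none, and the last 2 kinds were left out. All 90 member copies matched a RefSeq gene table (assembly Xenopus_laevis_v10.1, names only) by gene identifier, with 0 symbols changed. Members and lists were chosen with earlier results of these data known. Families followed a list of symbols by role, and srsf5a and prpf39.1 were placed with srsf5 and prpf39 after the file was seen. For differences, the plan was to name the 8 passing members of largest difference on each side of each comparison. Outside the members it was the 3 of each pathway list on each side. Not each of them is named. Any member may be named with its level, and the paragraphs on families also give differences of members beyond these 8. The counting code was run on simulated data with little noise and shifts far past the 1.5-fold limit. This checks that the code counts and says nothing about these arrays. Raw scans were not used here, and the number of arrays limits the precision. No sequences are shown.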

Additional observations from a re-analysis of the deposited data

How the results depend on the processing

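One array per group leaves the spread between embryos unknown, so no difference can be called, and dim members near the negative controls carry least. No paired analysis was possible because each group has 1 array and no result comes from a test. Under each choice tried members were higher in xSox6-MO than in CoMO and lower in xMLTK-MO than in xSox6-MO by the median, and the share of members lower between the morphants ran from 72.1% to 98.6%, where that of all features ran from 47.1% to 83.6%.

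The median of xMLTK-MO minus CoMO, -0.01, turned positive with centring on hybridisation controls (0.092), centring on poly-A controls (0.25), renewed quantile normalisation (0.0147), gene copies averaged (0.0228), the brightest probe set per copy (0.0317) and a mean log2 of at least 9 (0.00527). The last choice, and leaving out probe sets ending _s_at or _x_at, were added after seeing the data. The cause was not tested. The size of a centring shift depends on how the controls are summarised. Centring on their median per array added 0.48 (poly-A) and 0.18 (hybridisation) to each xSox6-MO minus CoMO difference. The controls' own differences there had medians of -0.35 and -0.15, which would give smaller shifts. Counts past 1.5-fold after centring depend on this choice.

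With hybridisation controls, the median of xSox6-MO minus CoMO was 0.33, 11 members were lower there (7.91% beside 26.2% of all probe sets) and 17 at least 1.5-fold higher (12.2% beside 10.7%), 2 were at least 1.5-fold higher in xMLTK-MO than in CoMO (1.44% beside 6.27%), and 7 at least 1.5-fold lower between the morphants (5.04% beside 3.41%). With poly-A controls, the medians were 0.62 for xSox6-MO minus CoMO and -0.35 between the morphants, 15 members were lower in xMLTK-MO (10.8% beside 18.5%) and 1 in xSox6-MO (0.719% beside 7.24%) than in CoMO, 11 (7.91% beside 12.3%) and 77 (55.4% beside 35.8%) exceeded CoMO by at least 1.5-fold, and 15 were at least 1.5-fold lower between the morphants (10.8% beside 7.99%).

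Other choices changed how many features were kept, and counts with them. Averaged copies (86) gave 42 lower in xMLTK-MO than in CoMO (48.8% beside 53.1% of all copies), with 0 at least 1.5-fold higher (beside 4.15%). In xSox6-MO 1 was at least 1.5-fold higher than CoMO (1.16% beside 4.41%). Between the morphants 62 were lower (72.1% beside 51.9%), with 1 at least 1.5-fold lower (1.16% beside 1.71%). The brightest probe set per copy (88) gave 40 lower than CoMO in xMLTK-MO (45.5% beside 52.3%) and 23 in xSox6-MO (26.1% beside 49.4%). It gave 67 lower between the morphants (76.1% beside 52.9%). At least 1.5-fold higher than CoMO were 0 in xMLTK-MO (beside 4.44%) and 1 in xSox6-MO (1.14% beside 4.67%). Averaged homeologs (69 genes) gave 36 lower than CoMO in xMLTK-MO (52.2% beside 52.8%) and 19 in xSox6-MO (27.5% beside 51.4%). They gave 53 lower between the morphants (76.8% beside 51.1%). In xMLTK-MO 0 genes were 1.5-fold or more below CoMO (beside 3.70%) or below xSox6-MO (beside 1.43%). At log2 of at least 9 (103), 0 members were past 1.5-fold against CoMO in either morphant. Of all probe sets there, 6.06% were in xMLTK-MO and 7.14% in xSox6-MO. Only 1 member was at least 1.5-fold lower between the morphants (0.971% beside 1.51%). This limit is set on the mean of the 3 arrays. The probe set of snrnp40.S, at 9.20 in CoMO, 8.23 in xMLTK-MO and 9.40 in xSox6-MO, was left out through its own low value. The counts past 1.5-fold at this limit therefore cannot speak for it. With no level filter (149), in xMLTK-MO against CoMO 2 were at least 1.5-fold lower (1.34% beside 4.12%) and 2 higher (1.34% beside 4.37%). Without _s_at and _x_at probe sets (122), 0 were at least 1.5-fold higher than CoMO in xMLTK-MO (beside 4.21%) and 1 in xSox6-MO (0.820% beside 4.56%). A pseudocount of 16 left 0 at least 1.5-fold higher in xMLTK-MO than in CoMO, beside 3.86%.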
